A study of Homo sapiens with 6 samples.

Results

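Nucleoporins and nuclear transport receptors were followed in MV4-11 cells after WNK463 treatment. They were taken as every gene of the expression table whose symbol names a numbered nucleoporin (NUP), an importin alpha or beta (KPNA, KPNB, IPO), a transportin (TNPO), an exportin (XPO), a numbered Ran-binding protein (RANBP), *RANGAP1* or *RCC1*, which gave 57 of 20348 genes. MV4-11 is an established line of human acute myeloid leukaemia (AML), and WNK463 inhibits WNK kinases, serine/threonine kinases known for control of ion transport. The design had 3 libraries labelled Ctrl from untreated cells (Control) and 3 libraries from cells given 1 μM WNK463, all of the same line and all at 48 h. The labels do not say whether the 3 libraries of a group came from separate cultures, so p-values measure the spread between these libraries, which may be technical. No wild-type counterpart, other cell line, dose or time point entered the comparison, and whether the blank control contained the drug's solvent is not stated.

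The nuclear pore complex is a ring-shaped channel through the nuclear envelope. Outer and inner rings of scaffold nucleoporins anchor it in the membrane, and nucleoporins rich in phenylalanine-glycine (FG) repeats fill the channel and bind passing receptors. Importins carry cargo into the nucleus and exportins carry it out, and the small GTPase Ran sets the direction, because RCC1 loads it with GTP on chromatin and RANGAP1 makes it hydrolyse GTP in the cytoplasm. Dividing cells assemble new pores in each cycle. In leukaemia *NUP98* and *NUP214* are known as partners in fusion genes, and exportin 1 is a drug target.

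Total counts per library lay between 14915745 and 17411780. A gene was compared between groups in counts per 1000000 of the library after TMM normalisation (CPM), and genes were compared with each other in the authors' TPM, which corrects for transcript length. Sums over several genes, and some single levels, are also given for both groups in TPM, which is without TMM scaling. TMM factors were 0.944 to 0.951 in Control and 1.05 to 1.06 with WNK463, and dividing by total counts alone shifted all genes up by a median of 0.15 (log2). A call that this scaling changes is given beside the gene. *FLT3*, *SPI1*, *HOXA9*, *MEIS1* and *CD33* of the line's marker list had mean levels of 53.5 to 369 CPM in Control, *MPO* had 7.47 CPM in Control and 1.31 CPM with WNK463, and *CD14* was below 1 CPM. Of the markers of T, B, epithelial and erythroid cells reported here, *KRT8* alone exceeded 1 CPM in either group mean (9.41 and 12.5 CPM), and *CD3D*, *MS4A1*, *EPCAM*, *CDH1* and *HBB* had 0 counts in every library. In such bulk RNA, fewer cells expressing a gene and less RNA per cell cannot be told apart.

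Most of the transport genes were lower after WNK463. Of the 57 members, 52 passed the filter on low counts, and 37 of these fell and 9 rose at an adjusted p below 0.05 from edgeR's quasi-likelihood test. Over all 11973 genes tested, 70.8% passed this test, 35.3% lower and 35.5% higher, against 71.2% of the tested members lower and 17.3% higher. The median log2 fold change was -0.50 over the tested members and 0.016 over all tested genes. The 3 WNK463 libraries lay wholly above or below the 3 Control libraries for 46 of the 52 members, and for 73.5% of all genes tested. These 46 were the same members that passed the test. Separate groups of a gene, where named below, thus describe its values and add no support to its call. When a log2 fold change of 1 or more in size was also required, 5 members were lower (*XPO6*, *NUP155*, *RANBP1*, *NUP205* and *NUP88*) and 1 was higher (*KPNA5*), where 5.55% of all genes were lower and 9.62% higher, 15.2% together. With total counts *NUP205* (-0.93) and *NUP88* (-0.90) were under this limit, and with limma on log2(TPM + 1) only *XPO6* and *NUP155* were past it. All 6 still passed the test itself in these fits, in the same direction. The share of all counts that fell on the 57 genes was 0.977% to 0.989% in Control and 0.793% to 0.806% with WNK463. The other 5 members, *NUP62CL*, *NUP210L*, *KPNA7*, *RANBP17* and *RANBP3L*, had at most 3 counts in any library and were not tested.

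**Figure D1:**
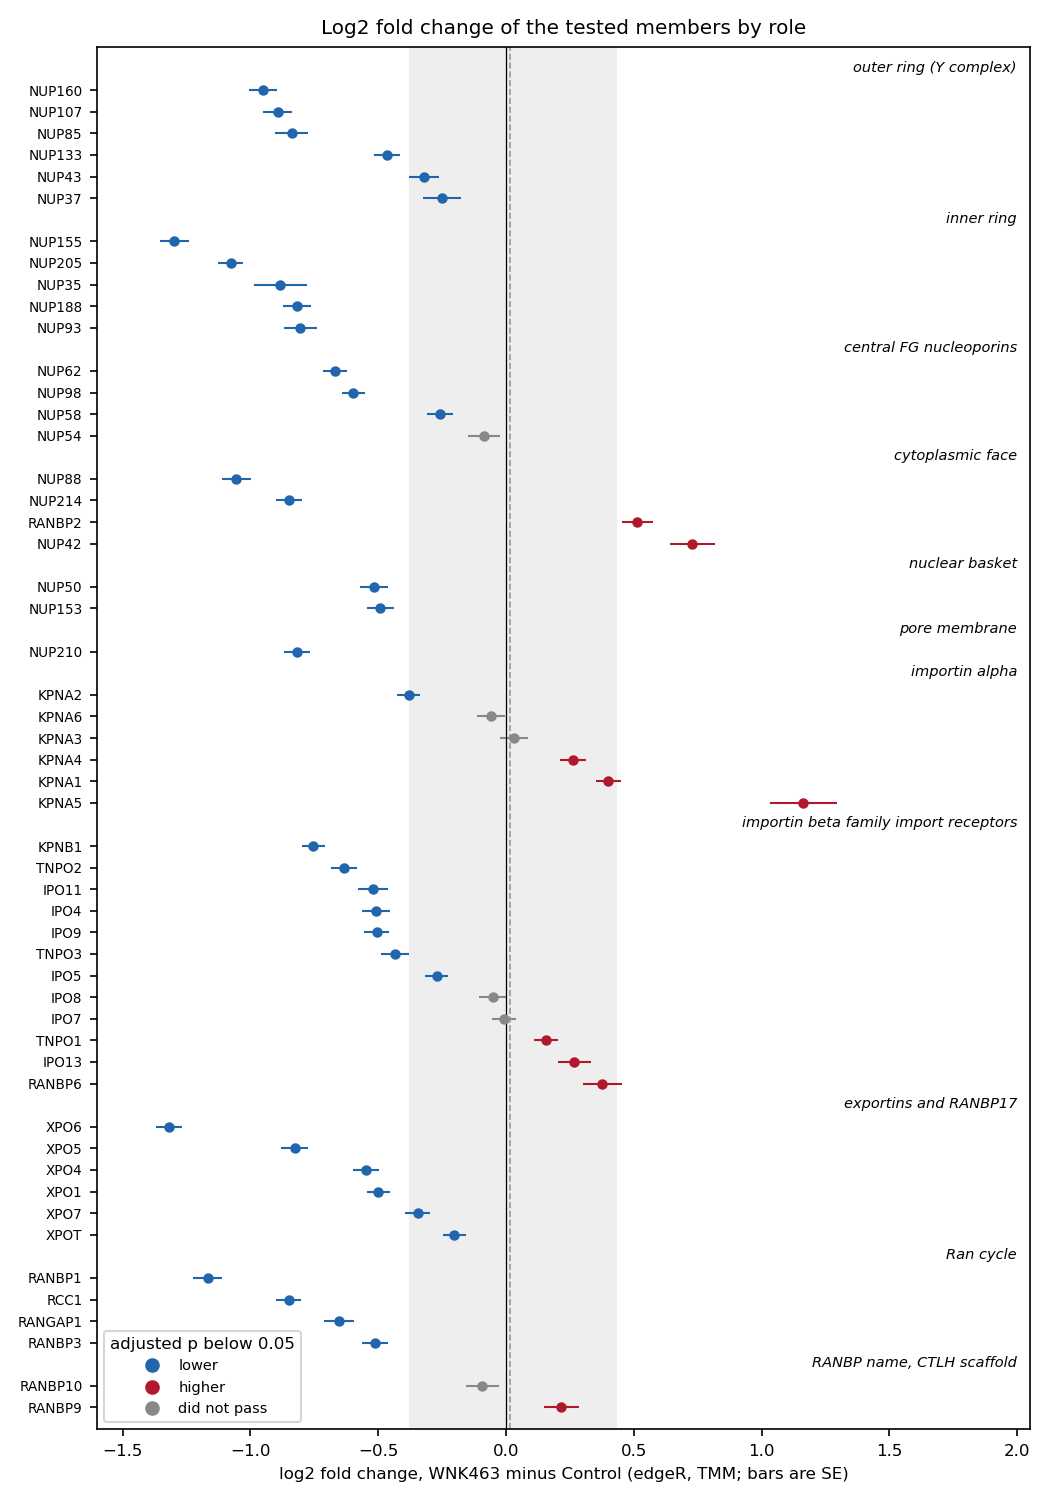
Log2 fold change (WNK463 minus Control, edgeR with TMM scaling, horizontal axis) of the 52 tested members, ordered by role, with bars of 1 standard error, where blue is lower, red is higher and grey did not pass. The grey band spans the middle 50% of all tested genes, from -0.38 to 0.43, the dashed line is their median of 0.016, and all 5 inner ring genes lie to the left of the band.

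**Figure D2:**
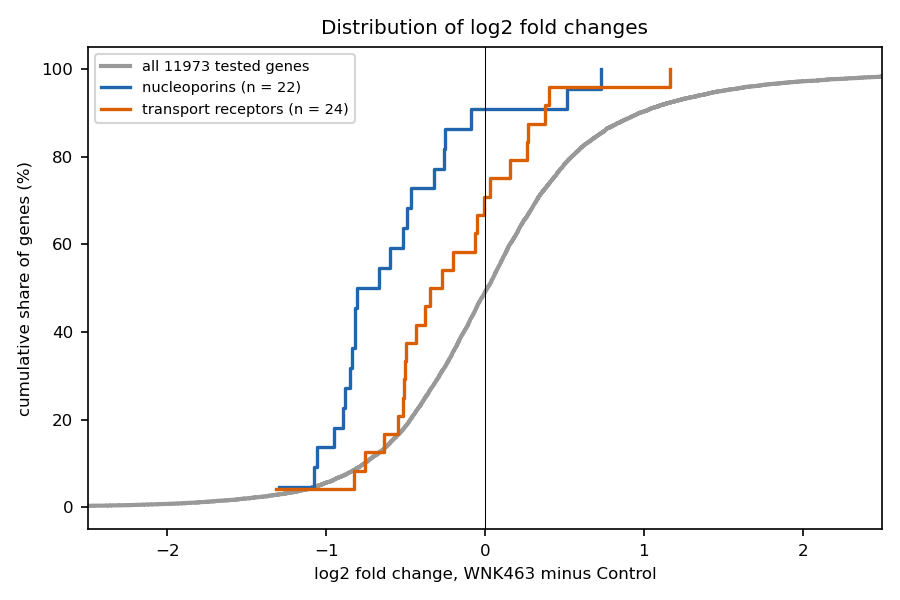
Cumulative share of genes (%, vertical axis) by log2 fold change (horizontal axis) for the 22 tested nucleoporins with RANBP2 among them, the 24 tested transport receptors and all 11973 tested genes. The median is -0.74 for nucleoporins and -0.31 for receptors.

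Of the 22 tested nucleoporins 19 fell (86.4%) and 2 rose (9.09%). Of the 24 tested importins, transportins and exportins 14 fell (58.3%) and 6 rose (25%). Over all tested genes 35.3% fell and 35.5% rose, and the counts by role below stand beside these same shares. The difference between nucleoporins and receptors was not tested.

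The inner ring, the scaffold that lines the channel and ties it to the membrane, fell in all 5 of its genes, with a median log2 fold change of -0.88. *NUP155* (ENSG00000113569, chromosome 5 from 37288137 to 37371181 on the minus strand), a membrane-binding subunit of this ring, had 145, 146 and 133 CPM in the Control libraries and 58.2, 58.7 and 55.1 CPM in the WNK463 libraries. *NUP155* thus had a log2 fold change of -1.30 (standard error 0.057, adjusted p = 1.53e-12), and the groups were far apart. *NUP205* (ENSG00000155561, chromosome 7 from 135557919 to 135648757 on the plus strand), a large subunit held by NUP93, had 284, 279 and 274 CPM in Control and 138, 126 and 132 CPM with WNK463. The log2 fold change of *NUP205* was -1.08 (standard error 0.049, adjusted p = 2.44e-12). Its paralog *NUP188* had 307, 285 and 283 CPM in Control and 174, 153 and 169.6 CPM with WNK463, with a log2 fold change of -0.82 (standard error 0.055, adjusted p = 3.91e-10). The highest WNK463 library of each of these genes was below the lowest Control library. The values for *NUP93*, which organises the ring, and *NUP35*, the member of the ring with the fewest counts, were -0.80 (standard error 0.065, adjusted p = 4.57e-09) and -0.88 (standard error 0.105, adjusted p = 6.41e-07). By length-corrected level the summed inner ring transcripts went from 402 ± 13.7 to 239.7 ± 8.79 TPM (SD, n = 3 per group).

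The outer ring is built from Y-shaped complexes, and its 6 genes with a NUP symbol were all lower, with log2 fold changes from -0.95 to -0.25. *NUP160* (ENSG00000030066, chromosome 11 from 47778087 to 47848555 on the minus strand), at the end of an arm of the Y, had 226, 229 and 233 CPM in the Control libraries and 125, 108 and 123 CPM in the WNK463 libraries. *NUP107*, in the stem, had 90.2, 89.4 and 92.3 CPM in Control and 50.3, 46.6 and 49.5 CPM with WNK463, and *NUP85*, in the other arm, had 74.2, 72.6 and 69.7 CPM in Control and 37.2, 42.3 and 41.6 CPM with WNK463. These 3 genes had log2 fold changes of -0.95 (standard error 0.055, adjusted p = 6e-11), -0.89 (standard error 0.057, adjusted p = 1.85e-10) and -0.84 (standard error 0.065, adjusted p = 2.45e-09), and in each of them the Control and WNK463 libraries were separate. The other 3 genes had smaller differences. The log2 fold change was -0.46 for *NUP133*, which joins the Y complexes to each other, -0.32 for *NUP43* and -0.25 for *NUP37*, and that of *NUP37* did not pass with total counts (-0.098, adjusted p = 0.252). Summed over the 6 genes, the outer ring went from 381 ± 7.61 to 284 ± 5.98 TPM (SD, n = 3 per group).

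Among the FG nucleoporins of the channel, *NUP62* and *NUP98* fell, *NUP58* fell less, and *NUP54* did not pass. NUP62, NUP54 and NUP58 form 1 complex in the centre of the pore. *NUP62* had 270.0, 264 and 278 CPM in the Control libraries and 177, 167 and 167 CPM in the WNK463 libraries, a log2 fold change of -0.67 (standard error 0.047, adjusted p = 7.66e-10). *NUP98*, whose transcript also encodes the outer ring protein NUP96, had 372, 352 and 360.2 CPM in Control and 245, 231 and 241 CPM with WNK463, a log2 fold change of -0.60 (standard error 0.046, adjusted p = 2.41e-09). *NUP58* had 164, 177 and 171 CPM in Control and 142, 138 and 149 CPM with WNK463, a log2 fold change of -0.26 (standard error 0.051, adjusted p = 0.000224), which did not pass with total counts (-0.11, adjusted p = 0.0684). In these 3 genes the groups did not overlap. *NUP54* had 74.6, 68.1 and 77.2 CPM in Control and 72.2, 67.7 and 67.4 CPM with WNK463, and its groups overlapped, with a log2 fold change of -0.086 (standard error 0.061, adjusted p = 0.216). Of the 75-base stretches of the longest *NUP62* coding transcript in GENCODE 29, 14.3% also occur in 11 other genes, *IL4I1* among them. Exons of *NUP62* overlap those of *ATF5* on the other strand over 10.4% of their bases, and strand-aware counting is not stated in the sources used here.

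The cytoplasmic face was the site where nucleoporins went opposite ways. *NUP88* (ENSG00000108559, chromosome 17 from 5360963 to 5420160 on the minus strand) and *NUP214*, which bind each other and face the cytosol, fell. *RANBP2* (ENSG00000153201, chromosome 2 from 108719481 to 108785811 on the plus strand), the giant filament protein that holds SUMO-modified RANGAP1 at the pore, and *NUP42* (ENSG00000136243, chromosome 7 from 23181827 to 23201011 on the plus strand), a partner of the mRNA export factor GLE1, rose. *NUP88* had 159, 162 and 175 CPM in the Control libraries and 84.2, 80.1 and 74.5 CPM in the WNK463 libraries, a log2 fold change of -1.05 (standard error 0.058, adjusted p = 2.94e-11). *NUP214* had 188, 179.9 and 173 CPM in Control and 104, 96.3 and 100.1 CPM with WNK463, a log2 fold change of -0.85 (standard error 0.052, adjusted p = 1.19e-10). For both genes every WNK463 library was lower than every Control library. *RANBP2* had 253, 295 and 307 CPM in the Control libraries and 408, 427 and 386 CPM in the WNK463 libraries, a log2 fold change of 0.51 (standard error 0.062, adjusted p = 7.62e-07). *NUP42* had 20.8, 25.04 and 27.6 CPM in Control and 40.2, 40.7 and 40.8 CPM with WNK463, with a log2 fold change of 0.73 (standard error 0.088, adjusted p = 8.57e-07). All WNK463 libraries were above all Control libraries in both, although the Control libraries of *NUP42* varied more than its WNK463 libraries. Control replicate 1 was the lowest library of *RANBP2* and of *NUP42*. Without it their log2 fold changes were smaller, at 0.43 and 0.61, and still passed. The summed TPM of the 4 genes, 263 ± 15.5 in Control against 238 ± 10.8 after WNK463 (SD, n = 3 per group), overlapped between the groups.

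Some of these counts could hold reads of other genes. Of all 75-base stretches of the longest *RANBP2* coding transcript in GENCODE 29, 20.3% also occur in transcripts of the RGPD family, copies of *RANBP2* that had group means of at most 1.06 CPM each. Exons of *NUP42* overlap an antisense RNA over 13.0% of their bases, and those of *NUP88* overlap *RPAIN* and *RABEP1* on the other strand over 9.82% and 8.84%. Their part in the counts was not tested.

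Both nuclear basket genes with a NUP symbol fell. *TPR*, a basket gene outside the members, did not pass in edgeR (log2 fold change -0.018, adjusted p = 0.859). In TPM, which is without TMM scaling, *TPR* had 44.2, 55.3 and 62.1 in Control and 76.5, 65.4 and 62.6 with WNK463. On that measure its WNK463 libraries were the higher ones, by little at the nearest pair. *NUP50*, which helps release cargo from importin alpha, had 156, 166 and 171 CPM in the Control libraries and 120.4, 111 and 113 CPM in the WNK463 libraries, a log2 fold change of -0.52 (standard error 0.054, adjusted p = 1.23e-07). *NUP153*, which anchors the basket, had 204, 213 and 207 CPM in Control and 157, 140.5 and 147 CPM with WNK463, a log2 fold change of -0.49 (standard error 0.051, adjusted p = 1.27e-07). *NUP210*, a glycoprotein of the pore membrane, was the tested member with the most counts. It had 1028, 982 and 929.7 CPM in the Control libraries and 579, 526 and 563 CPM in the WNK463 libraries, a log2 fold change of -0.82 (standard error 0.050, adjusted p = 1.12e-10). None of *NUP50*, *NUP153* and *NUP210* had overlapping groups. Exons of *NUP153* overlap an antisense RNA over 9.25% of their bases, and 10.4% of the 75-base stretches of *NUP50* occur in 3 other genes.

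**Figure D3:**
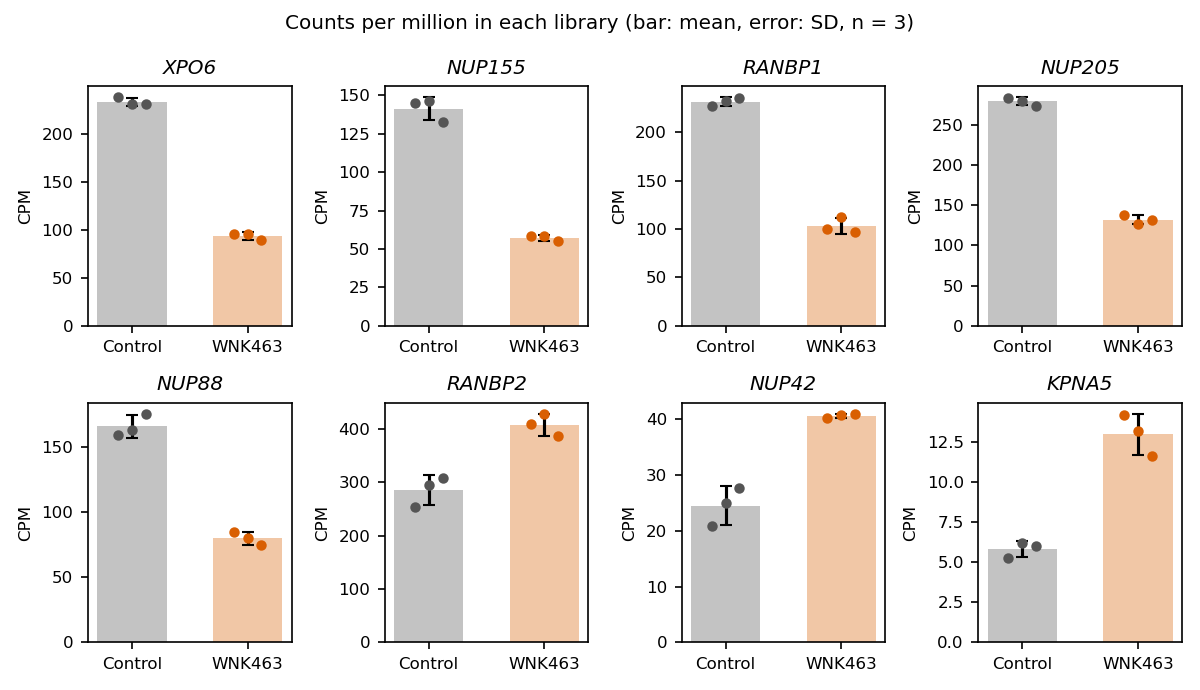
CPM (vertical axes, from 0) of the 6 members past the fold limit and of RANBP2 and NUP42 in each library, with points for libraries, bars for the mean and error bars for the SD (n = 3). The Control and WNK463 points do not overlap in any of the 8 panels, lower with WNK463 in the first 5 and higher in the last 3.

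The 4 tested Ran cycle genes were all lower. *RANBP1* (ENSG00000099901, chromosome 22 from 20115938 to 20127357 on the plus strand), which frees Ran-GTP from receptors so that RANGAP1 can act on it, had the highest level per length of all members in Control, with a TPM of 399 ± 10.9 in Control against 206 ± 16.9 after WNK463 (SD, n = 3 per group). In counts it had 227, 233 and 235 CPM in the Control libraries and 100.1, 113 and 96.5 CPM in the WNK463 libraries, a log2 fold change of -1.17 (standard error 0.057, adjusted p = 5.82e-12). Transcripts of 3 other genes (AC097263.1, AC025161.1 and AL669818.1) share 11.6% of the 75-base stretches of *RANBP1*, and its exons overlap *TRMT2A* on the other strand over 8.5%. *RCC1*, the exchange factor that makes Ran-GTP, had 178, 178 and 175 CPM in Control and 99.0, 96.3 and 99.1 CPM with WNK463, and *RANGAP1*, the activator of GTP hydrolysis, had 275, 251 and 239 CPM in Control and 164, 149.7 and 173 CPM with WNK463. Their log2 fold changes were -0.85 (standard error 0.048, adjusted p = 4.19e-11) and -0.65 (standard error 0.060, adjusted p = 2.47e-08), and exons of *RCC1* overlap *SNHG3* on the same strand over 6.22% of their bases. Thus the factor that loads Ran with GTP and the factors that unload it were each lower in every WNK463 library than in any Control library. *RANBP3*, a cofactor of exportin 1, had a log2 fold change of -0.51 (standard error 0.051, adjusted p = 6.55e-08). The summed TPM of these Ran cycle members, without *RAN* itself, went from 793 ± 8.45 to 488 ± 11.8 TPM (SD, n = 3 per group).

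All 6 tested exportins were lower. *XPO6* (ENSG00000169180, chromosome 16 from 28097979 to 28211920 on the minus strand), which exports actin bound to profilin, had the smallest p of all members, rank 73 of the 11973 genes. It had 238, 231 and 230.3 CPM in the Control libraries and 95.5, 95.5 and 88.9 CPM in the WNK463 libraries, a log2 fold change of -1.32 (standard error 0.050, adjusted p = 2.44e-13). *XPO5*, the exporter of microRNA precursors, had 219, 203 and 198 CPM in Control and 118, 113 and 118 CPM with WNK463, a log2 fold change of -0.83 (standard error 0.052, adjusted p = 1.59e-10). *XPO1*, which exports proteins with a leucine-rich signal and is the target of selinexor, had 557, 571 and 591 CPM in Control and 412, 413 and 389 CPM with WNK463, a log2 fold change of -0.50 (standard error 0.045, adjusted p = 2.07e-08). No Control library of these genes was as low as any WNK463 library. *XPO4* and *XPO7* had log2 fold changes of -0.55 and -0.34. *XPOT*, the tRNA exporter, had 317, 338 and 324 CPM in Control and 282, 287 and 282 CPM with WNK463, a log2 fold change of -0.20 (standard error 0.045, adjusted p = 0.000603), the smallest of the exportins. It did not pass with total counts (-0.050, adjusted p = 0.308). *XPO7* did not pass with limma on log2(TPM + 1), where its log2 fold change was -0.13 (adjusted p = 0.0874). The groups of all 6 exportins were without overlap in CPM.

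Import receptors of the importin beta family were divided, with 7 of 12 lower, 3 higher and 2 that did not pass. *KPNB1* (ENSG00000108424, chromosome 17 from 47649476 to 47685505 on the plus strand), the partner of importin alpha in classical import, had 535, 557 and 557 CPM in the Control libraries and 332, 314 and 332 CPM in the WNK463 libraries, a log2 fold change of -0.75 (standard error 0.045, adjusted p = 7.62e-11). *TNPO2* had 182, 181 and 169 CPM in Control and 111, 117 and 115 CPM with WNK463, a log2 fold change of -0.63 (standard error 0.051, adjusted p = 3.97e-09). *IPO9*, an importer of histones H2A and H2B, had 164, 171 and 162 CPM in Control and 116, 117 and 117 CPM with WNK463, a log2 fold change of -0.51 (standard error 0.048, adjusted p = 4e-08). In these 3 genes all WNK463 libraries were the lower ones. *IPO11*, *IPO4*, *TNPO3* (the receptor of SR splicing factors) and *IPO5* fell, with log2 fold changes of -0.52, -0.51, -0.43 and -0.27. The transcript of *IPO4* shares 95.1% of its 75-base stretches with a read-through gene, AL136295.4, which had 7 to 48 counts per library, and exons of *IPO11* overlap *LRRC70* on the same strand over 17.0% of their bases.

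The import receptors that rose did so by little. *RANBP6*, which is close in sequence to *IPO5*, had 38.2, 41.6 and 39.0 CPM in the Control libraries and 45.2, 54.0 and 55.0 CPM in the WNK463 libraries, a log2 fold change of 0.38 (standard error 0.077, adjusted p = 0.00028). *IPO13*, which works in both directions, and *TNPO1*, the receptor of hnRNP proteins with a PY signal, had log2 fold changes of 0.27 (standard error 0.063, adjusted p = 0.000966) and 0.16 (standard error 0.046, adjusted p = 0.00557). *TNPO1* and *TNPO2*, which are close paralogs, therefore differed in direction, at 0.16 and -0.63, and both calls held with total counts (0.31 and -0.48). *IPO7* had 380.5, 405 and 420.1 CPM in Control and 403, 396 and 399 CPM with WNK463. *IPO8* had 87.7, 98.6 and 95.4 CPM in Control and 92.8, 90.8 and 88.4 CPM with WNK463. The groups of *IPO7* and *IPO8* overlapped, with log2 fold changes of -0.0087 (standard error 0.047, adjusted p = 0.874) and -0.051 (standard error 0.057, adjusted p = 0.432), and with total counts that of *IPO7* was 0.14 and passed (adjusted p = 0.0103).

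Importin alpha proteins recognise the classical nuclear localisation signal and bring the cargo to importin beta, and 3 of their 6 tested genes rose, 1 fell and 2 did not pass, with a median log2 fold change of 0.15. *KPNA5* (ENSG00000196911, chromosome 6 from 116681187 to 116741866 on the plus strand) had 5.24, 6.17 and 5.98 CPM in the Control libraries and 14.1, 13.1 and 11.6 CPM in the WNK463 libraries, a log2 fold change of 1.16 (standard error 0.131, adjusted p = 3.51e-07). It was the least abundant of the tested members, with a TPM of 2.12 ± 0.823 in Control against 4.99 ± 0.774 after WNK463 (SD, n = 3 per group). *KPNA1* had 129, 137 and 134 CPM in Control and 179, 172 and 178 CPM with WNK463, a log2 fold change of 0.40 (standard error 0.049, adjusted p = 9.05e-07). *KPNA2* (ENSG00000182481, chromosome 17 from 68035519 to 68046842 on the plus strand), the importin alpha that is most abundant in many dividing cells, had 386, 385 and 397 CPM in Control and 308, 289 and 301 CPM with WNK463, a log2 fold change of -0.38 (standard error 0.045, adjusted p = 6.14e-07). The groups of the 3 genes were separate, with *KPNA2* lower and the other two higher. *KPNA4* also rose, by a log2 fold change of 0.26 (standard error 0.050, adjusted p = 0.00014). The log2 fold changes of *KPNA3* and *KPNA6* were 0.033 and -0.060 with overlapping groups, and with total counts that of *KPNA3* was 0.18 and passed (adjusted p = 0.00653). Exons of *KPNA1* overlap an antisense RNA over 16.3% of their bases, and 8.06% of the 75-base stretches of *KPNA2* occur in other genes, among them the pseudogenes *KPNA2P1* and *KPNA2P3*.

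The share of each gene in the summed importin alpha transcripts lay in separate ranges in Control and WNK463 libraries, while the sum itself overlapped between the groups. The summed TPM was 571 ± 14.5 in Control against 598 ± 18.1 after WNK463 (SD, n = 3 per group). *KPNA2* made up 64.5, 63.1 and 64.4% of this sum in the Control libraries and 53.7, 53.7 and 53.6% in the WNK463 libraries. The difference of the means was -10.3 percentage points, with an SD of 0.781 points in Control and 0.037 points with WNK463 (n = 3 per group). *KPNA1* took 10.7% ± 0.635 in Control against 15.8% ± 0.976 after WNK463 (SD, n = 3 per group), and *KPNA4* took 13.4% ± 0.322 in Control against 17.0% ± 0.618 after WNK463 (SD, n = 3 per group). *KPNA5* took 0.370% ± 0.140 in Control against 0.834% ± 0.117 after WNK463 (SD, n = 3 per group), and its TPM varied more between Control libraries than its counts of 86, 90 and 98. A share within a library does not change with the scaling between libraries. The 6 shares of a library make up the whole sum, so a lower *KPNA2* share raises the others, and they are not separate observations. Each of the 6 shares separated the groups and gave p = 0.1 in an exact two-sided permutation test, also after Benjamini-Hochberg adjustment over the 6 shares, which is the smallest p that 3 libraries against 3 allow, so none could pass 0.05. The *KPNA6* share was higher by 0.217 points in TPM and lower by a difference of -0.299 points when counts were used without length correction. Its TPM shares nearly touched, at 4.681% in Control replicate 1 and 4.684% in WNK463 replicate 3.

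**Figure D4:**
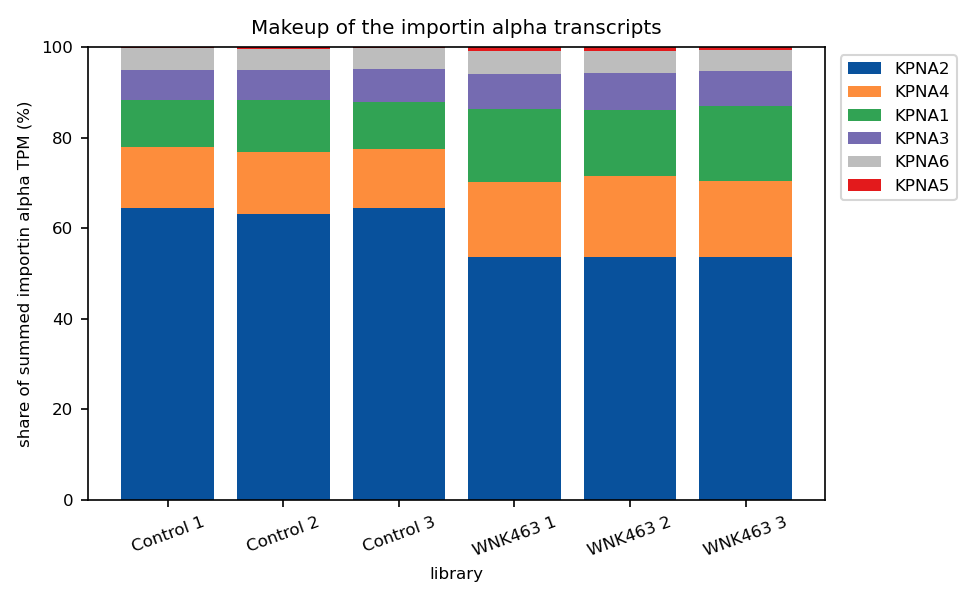
Share of the summed importin alpha TPM (%, vertical axis) held by each of the 6 tested importin alpha genes in each library (horizontal axis). The KPNA2 segment is 63.1% to 64.5% of the bar in the 3 Control libraries and 53.6% to 53.7% in the 3 WNK463 libraries.

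*RANBP9* and *RANBP10* carry the Ran-binding name but are scaffolds of the CTLH ubiquitin ligase. *RANBP9* had 90.2, 109 and 106 CPM in the Control libraries and 125, 110.3 and 118 CPM in the WNK463 libraries, a log2 fold change of 0.22 (standard error 0.068, adjusted p = 0.00879), and without WNK463 replicate 1 it did not pass (0.17, adjusted p = 0.0688). Without Control replicate 1, the lowest library, the log2 fold change of *RANBP9* was 0.13 and passed (adjusted p = 0.0441). *RANBP10* had 51.8, 49.9 and 48.1 CPM in Control and 47.7, 44.5 and 48.3 CPM with WNK463, a log2 fold change of -0.093 (standard error 0.064, adjusted p = 0.202). Exons of *RANBP9* overlap *NOL7* on the other strand over 10.4% of their bases.

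The promoters of the members were read from RefSeq (GRCh38.p14, 250 bases before to 50 after the gene start), which matched 46 of the 52 tested members. They are shown for the members past the fold limit and for *RANBP2* and *NUP42*, which of the members that rose and have an entry had the largest fold. *KPNA5* and *RANBP1* had no entry in the table. The windows are chr16:28211916-28212215 on the minus strand for *XPO6*, chr5:37371057-37371356 on the minus strand for *NUP155*, chr7:135557667-135557966 on the plus strand for *NUP205*, chr17:5419613-5419912 on the minus strand for *NUP88*, chr2:108719232-108719531 on the plus strand for *RANBP2* and chr7:23181798-23182097 on the plus strand for *NUP42*. The RefSeq start that sets a window can differ from the GENCODE gene boundary, and the *NUP88* window lies wholly inside the GENCODE gene. Each is written 5′ to 3′ along the gene's strand, with matches on either strand to the motifs listed next in capitals.
XPO6: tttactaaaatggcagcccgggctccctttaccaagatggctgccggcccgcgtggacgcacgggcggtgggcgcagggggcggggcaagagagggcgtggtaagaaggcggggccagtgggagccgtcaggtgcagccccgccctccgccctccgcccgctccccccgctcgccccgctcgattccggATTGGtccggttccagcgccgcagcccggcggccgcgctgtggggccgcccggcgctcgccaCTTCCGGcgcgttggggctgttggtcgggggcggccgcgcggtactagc
NUP155: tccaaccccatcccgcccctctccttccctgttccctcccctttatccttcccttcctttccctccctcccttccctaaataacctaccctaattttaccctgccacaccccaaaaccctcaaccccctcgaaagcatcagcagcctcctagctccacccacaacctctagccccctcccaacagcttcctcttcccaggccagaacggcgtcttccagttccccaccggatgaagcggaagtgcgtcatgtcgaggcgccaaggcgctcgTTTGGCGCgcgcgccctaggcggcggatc
NUP205: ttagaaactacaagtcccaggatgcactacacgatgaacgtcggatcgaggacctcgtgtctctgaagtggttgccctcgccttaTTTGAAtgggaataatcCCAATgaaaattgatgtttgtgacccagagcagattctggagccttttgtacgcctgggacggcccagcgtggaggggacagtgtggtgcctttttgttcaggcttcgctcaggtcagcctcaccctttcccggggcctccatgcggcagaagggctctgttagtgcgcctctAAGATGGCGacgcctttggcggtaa
NUP88: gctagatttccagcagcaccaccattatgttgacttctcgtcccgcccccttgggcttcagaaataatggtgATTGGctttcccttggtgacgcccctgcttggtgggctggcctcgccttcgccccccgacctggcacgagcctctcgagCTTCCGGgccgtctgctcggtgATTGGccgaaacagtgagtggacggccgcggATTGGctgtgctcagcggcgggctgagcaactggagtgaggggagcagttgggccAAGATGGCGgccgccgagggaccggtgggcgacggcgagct
RANBP2: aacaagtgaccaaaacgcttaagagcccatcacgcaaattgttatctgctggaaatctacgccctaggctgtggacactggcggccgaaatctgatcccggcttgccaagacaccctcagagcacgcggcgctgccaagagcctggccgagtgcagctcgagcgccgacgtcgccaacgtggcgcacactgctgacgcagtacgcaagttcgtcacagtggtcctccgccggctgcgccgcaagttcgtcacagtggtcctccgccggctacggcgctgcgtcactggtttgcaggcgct
NUP42: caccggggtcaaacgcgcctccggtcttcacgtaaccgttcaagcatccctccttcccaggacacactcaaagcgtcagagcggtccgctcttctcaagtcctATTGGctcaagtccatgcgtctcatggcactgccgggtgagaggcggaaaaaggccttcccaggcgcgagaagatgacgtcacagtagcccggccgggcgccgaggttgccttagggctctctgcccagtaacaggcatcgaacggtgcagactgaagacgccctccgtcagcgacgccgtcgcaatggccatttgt

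The motifs searched, on both strands, were 4 forms of the E2F site (TTTGGCGC, TTTCGCGC, TTTGCCGC and TTTCCCGC), the CHR element (TTTGAA), the CCAAT box (CCAAT), the E-box (CACGTG), an ETS site (CCGGAAG), the NRF1 site and a YY1 site (AAGATGGCG). No match of one motif lay over a match of another in the windows shown. In *XPO6* the capitals mark a CCAAT box (bases 190 to 194) and an ETS site (252 to 258), in *NUP155* an E2F site (272 to 279), and in *NUP205* a CHR element (86 to 91), a CCAAT box (103 to 107) and a YY1 site (276 to 284). The *NUP88* window has CCAAT boxes from bases 73, 174 and 205, an ETS site from base 152 and a YY1 site from base 260. The *RANBP2* window held none of these letters, and that of *NUP42* held a CCAAT box from base 104.

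Among promoters of members that fell, the ETS site was present in 13 of 33 (39.4%), against 20.6% of the 9647 promoters of tested genes and 10.7% of all 27305 promoters. It was in 0 of the 7 promoters of members that rose and in 1 of 6 of members that did not pass. The CHR element was in 7 of 33 (21.2%), *NUP205*, *KPNA2*, *NUP37*, *NUP35*, *NUP98*, *NUP153* and *IPO11*, against 9.95% of promoters of tested genes and 15.4% of all. CCAAT boxes were in 16 of 33 (48.5%) and in 3 of the 7 that rose, against 36.8% of tested genes and 35.7% of all. The E2F site was in 3 of 33 (*NUP155*, *IPO11* and *RANBP3*, 9.09% against 5.74% and 3.33%), the NRF1 site in 4 (*NUP107*, *NUP62*, *NUP50* and *RANBP3*, 12.1% against 2.48% and 1.36%), the YY1 site in 4 (*NUP160*, *NUP205*, *NUP188* and *NUP88*, 12.1% against 4.18% and 1.85%) and the E-box in 4 (*NUP188*, *NUP50*, *TNPO2* and *IPO4*, 12.1% against 10.3% and 7.43%). Of the 6 promoters of members that did not pass, the CHR element, the E2F site and the YY1 site were in 1 each (16.7%). The E-box and CCAAT boxes were in 2 each (33.3%), and the NRF1 site was in 0. The CHR element and the E2F, NRF1, YY1 and E-box sites were in 0 of the 7 that rose. These shares are descriptions of letters in a window, with no test.

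Other genes of nuclear transport and the nuclear envelope were counted from a list of 53 genes found in the table, of which 47 were tested. Of these, 30 fell, 4 rose and 13 did not pass, with a median log2 fold change of -0.41. The share that passed, 72.3%, was near the 70.8% of all genes, with 63.8% lower and 8.51% higher against 35.3% and 35.5%. The count of higher genes was 7 with limma on log2(TPM + 1) or log2(TPM + 0.1) and 9 with log2(TPM + 1) and no filter. In the rest of the pore, 9 of 10 genes were lower, and the remaining one was *TPR*, the basket filament, with 214, 278 and 302 CPM in Control and 266, 272 and 246 CPM with WNK463 and a log2 fold change of -0.018 (standard error 0.085, adjusted p = 0.859). The 5 genes with the smallest p were *ALYREF*, an mRNA export adaptor, *LMNB2* and *LMNB1*, the B-type lamins, *RCC2*, a relative of RCC1, and *NUTF2*, the import factor of Ran. *ALYREF* had 174, 167 and 169.6 CPM in the Control libraries and 69.0, 70.1 and 73.5 CPM in the WNK463 libraries, a log2 fold change of -1.27 (standard error 0.052, adjusted p = 5.69e-13). *LMNB2* had 440.5, 444 and 436 CPM in Control and 216, 209.6 and 220.2 CPM with WNK463, a log2 fold change of -1.03 (standard error 0.044, adjusted p = 1.14e-12). *LMNB1* had 414, 434 and 439 CPM in Control and 225, 222 and 218 CPM with WNK463, a log2 fold change of -0.95 (standard error 0.045, adjusted p = 3.74e-12). All WNK463 libraries of these 3 genes were below all Control libraries. *RCC2* had 414, 413 and 416 CPM in Control and 234, 216 and 246 CPM with WNK463, a log2 fold change of -0.84 (standard error 0.050, adjusted p = 7.66e-11). *NUTF2* had 109, 98.8 and 102 CPM in Control and 53.4, 54.8 and 51.5 CPM with WNK463, a log2 fold change of -0.96 (standard error 0.058, adjusted p = 1.04e-10). The groups of *RCC2* and *NUTF2* were also separate. *RAN* itself and *CSE1L*, the exporter that returns importin alpha to the cytoplasm, were chosen after their values were seen and had log2 fold changes of -0.51 (standard error 0.044, adjusted p = 1.06e-08) and -0.84 (standard error 0.051, adjusted p = 1.09e-10). The 4 that rose were *SYNE1*, *SUN2* and *LMNA* of the nuclear envelope and *ENY2* of mRNA export, with log2 fold changes of 1.20, 0.41, 0.26 and 0.33. The lamin genes thus went opposite ways, with *LMNA* at 328, 289 and 279.6 CPM in Control and 359, 344 and 372 CPM with WNK463.

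By length-corrected level, the order of the members in Control began with *RANBP1*, *KPNB1* and *KPNA2*, with TPM of 399 ± 10.9, 376 ± 17.3 and 366 ± 8.06 (SD, n = 3). The Control libraries of *RANBP1* and *KPNB1* overlapped, as did those of *KPNB1* and *KPNA2*. With WNK463 *KPNA2* came first, at 321 ± 9.58 TPM, followed by *KPNB1* at 239.6 ± 17.6 TPM (SD, n = 3). *NUP210* and *XPO1* followed in Control at 258 ± 11.4 and 258 ± 9.64 TPM (SD, n = 3), also overlapping. Sums over roles hold only genes found by the symbol rule, and the pore membrane had 1 tested gene, *NUP210*. *RAN*, *TPR*, *NDC1*, *POM121* and *POM121C* were left out, with log2 fold changes of -0.51, -0.018, -0.52, -0.46 and -0.53. The order of roles thus applies to the members alone. Between roles, the ratio of summed TPM with WNK463 to that in Control was lowest in the inner ring, at 0.596, and the Ran cycle, at 0.616. It was 0.656 for the pore membrane, 0.724 for exportins, 0.746 for the outer ring, 0.763 for the basket, 0.802 for the channel and 0.856 for the importin beta family, and in each of these roles the groups did not overlap. It was 0.906 for the cytoplasmic face and 1.05 for importin alpha, where the groups overlapped. The summed TPM of *RANBP9* and *RANBP10* was higher with WNK463, at a ratio of 1.26 and without overlap. With limma on log2(TPM + 1), log2 fold changes were higher than with TMM scaling by a median of 0.18 over all genes. The ratios depend on this scaling, and *RANBP10* alone had a log2 fold change of -0.093 with TMM.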

How the data were processed

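RNA-seq of MV4-11 cells compared 3 Control and 3 WNK463 libraries (1 μM, 48 h), with mRNA captured on beads. The deposited table, made by the authors, holds estimated counts per gene as whole numbers without normalization, and the authors' TPM, a length-corrected level. The submitters' processing notes name fastp, Bowtie2, HISAT2, StringTie, RSEM, DESeq2, edgeR and GRCh38, without roles, and the versions are not given in the sources used here. The authors' group means, fold changes, p-values and adjusted p-values were not used.

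Counts were tested with edgeR 4.0.16 in R 4.3.3 (TMM, filterByExpr at its defaults, quasi-likelihood F test, Benjamini-Hochberg over 11973 genes). The standard error of a log2 fold change was its size over the root of its F statistic. Groups came from sample titles. One gene of the marker lists is not reported here. Members and lists were chosen with earlier results of these data known. Full values were given for the 3 members per role with the smallest p and all members past the fold limit, and of the wider list for the 5 genes with the smallest p. Library values outside this rule were also given, as for *NUP54*, *NUP42*, *XPOT*, *RANBP6*, *IPO7*, *IPO8*, *TPR* and *LMNA*. Alternatives were DESeq2 1.42.0, limma 3.58.1 on log2 TPM with a pseudocount of 1 or 0.1, total-count scaling, other filters, a replicate block and each library left out. The fits were also run on simulated data in which few genes changed, equally up and down. Such data could not test the scaling between groups, on which some calls depend. Replicate pairs differed by more than sampling noise (chi-square per degree of freedom 2.64 to 7.13). Gene positions are from GENCODE 29 on GRCh38, and annotation by the authors may differ. Read length is not stated, so 75-base stretches are a choice made here.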

Additional observations from a re-analysis of the deposited data

How the results depend on the processing

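All 46 members that passed kept their direction under all 14 alternatives run for each, and 41 of them (33 lower, 8 higher) also passed in each. The exceptions were *NUP37*, *NUP58*, *XPOT*, *XPO7* and *RANBP9*. Over the 52 members, 688 of 728 combinations of a member and an alternative kept direction and call, 13 kept direction and lost the call, 4 (*KPNA3*) kept direction and gained it, and 23 changed sign. In 4 of those 23 (*IPO7* with total counts and the 3 TPM settings) the member also gained the call. Members passing numbered 45 to 46 with each library left out, and 45 with total counts or TPM (34 lower, 11 higher). Members past the fold limit numbered 6 with each library left out, 4 with total counts or log2(TPM + 0.1), and 2 (*XPO6* and *NUP155*) with log2(TPM + 1), with or without a filter. Of the wider list, 4 genes were higher with edgeR, 7 with limma on log2(TPM + 1) or log2(TPM + 0.1), and 9 with log2(TPM + 1) and no filter. The cause was not tested.

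Sign changes concerned members that had not passed. With total counts, log2(TPM + 1) with or without a filter, and log2(TPM + 0.1), the log2 fold change was 0.065, 0.080 and 0.081 for *NUP54*, 0.091, 0.13 and 0.13 for *KPNA6*, 0.10, 0.13 and 0.13 for *IPO8*, 0.14, 0.19 and 0.19 for *IPO7* and 0.059, 0.11 and 0.11 for *RANBP10*, in that order. At least 10 counts in every sample gave 0.0083 for *IPO7*. With each library left out, *KPNA3* ranged from -0.00054 to 0.064 and *IPO7* from -0.053 to 0.012. The *KPNA6* share changed by -0.299 points in counts. Without a library in turn, the *KPNA2* share changed by -10.8 to -10.1 points.

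Same-numbered libraries did not deviate together (correlations of 0.012, 0.027 and -0.068), and were treated as unpaired, and the replicate block gave 46 members passing, 37 lower and 9 higher, 6 past the fold limit, and 34 of the wider list. With counts of 3 or fewer, 5 members could not be compared.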

Other observations

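Low-level members gave values but no comparison. *RANBP3L* had 1, 0 and 0 counts in the Control libraries and 3, 0 and 1 with WNK463, *RANBP17* had 0, 0 and 3 in Control and 0 with WNK463, *KPNA7* had 0, 0 and 2 in Control and 0 with WNK463, *NUP210L* had 1, 0 and 0 in Control and 1, 0 and 1 with WNK463, and *NUP62CL* had 1 count in 1 Control library. Of the untested copies of *RANBP2*, *RGPD8* had 0 counts in each Control library and 7, 12 and 9 with WNK463. *RGPD5* had 0 in each Control library and 1, 3 and 2 with WNK463, and *RGPD2* had 9, 0 and 7 against 13, 23 and 9. *RGPD1* had 1, 3 and 0 in Control against 0, 3 and 0, and *RGPD3* had 2, 1 and 0 against 0 in each. *RGPD8* shares stretches with *RANBP2*, and whether its counts hold reads of *RANBP2* was not tested. *RGPD4* and *RGPD6*, which were tested, had log2 fold changes of 0.89 (standard error 0.537, adjusted p = 0.147) and 0.72 (standard error 0.443, adjusted p = 0.153) from edgeR and did not pass.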
